A study of Mus musculus with 8 samples.

Results

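*Smtnl1*, *Txlnb*, *Tmem43*, *Snx20*, *Ptpn7*, *Mlana*, *Ms4a10*, *Pgbd5*, *Tmem63a* and *Trim66* are 10 of the 55401 genes counted in mouse embryonic stem cells (ESCs), and they were chosen by a higher RNA level after depletion of ZZZ3, YEATS2 or both, which are subunits of the ATAC complex. The values that chose them were the fold changes against control described here, with no fixed threshold. Total RNA was sequenced from 2 control, 3 Zzz3 auxin and 3 Yeats2 auxin libraries of ESCs grown in serum with leukaemia inhibitory factor and the inhibitors CHIR99021 and PD0325901, under G418 to select for the Tir1 transgene. In the auxin groups, ZZZ3 or YEATS2 carried an auxin-inducible degron, a tag that makes Tir1 direct the protein to degradation, and 500 µM auxin was given for 24 h. For the controls, the labels state no cell line and no treatment, so that line, auxin and loss of the protein cannot be told apart in a comparison with control. The degron acts on protein, and no protein was measured in these files.

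ATAC is a histone acetyltransferase coactivator complex that is recruited to gene promoters. ZZZ3 and YEATS2 are subunits with domains that bind histone tails. The 10 genes have their best known roles in differentiated cells. *Smtnl1* and *Txlnb* belong to muscle, *Snx20* and *Ptpn7* to leukocytes, *Mlana* to melanocytes and *Ms4a10* to the intestine. *Pgbd5* and *Tmem63a* belong to brain and *Trim66* to male germ cells. *Tmem43* is set beside muscle here only for its link to a disease of heart muscle. Only ESCs were sequenced, so expression in the adult tissue was not measured here.

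RefSeq start regions of the genes differed in CG dinucleotides, the sites of DNA methylation. Of the 10 genes, 7 had 250 bases upstream of a transcription start in RefSeq (GRCm38.p6), in 8 windows since *Ptpn7* has 2 starts. These windows held 0 CG for *Ms4a10*, 3 for *Trim66*, 9 for *Smtnl1*, 9 and 6 for *Ptpn7*, 22 for *Tmem43*, 23 for *Tmem63a* and 33 for *Pgbd5*, against a median of 6 over all 32851 windows. Not all of this is sequence before the gene. By GENCODE the windows of *Tmem43*, *Tmem63a*, *Pgbd5* and the second start of *Ptpn7* hold exon sequence of the gene itself, that of *Tmem43* also of *Chchd4*, and that of the first start of *Ptpn7* holds exon sequence of *Ptprv*. The *Pgbd5* window lies 5.72 kb inside the annotated gene. Printed 5′ to 3′ on the strand of the gene, with each CG in capitals, are the windows of *Smtnl1* (chr2:84822653-84822902, minus strand), *Trim66* (chr7:109508135-109508384, minus strand) and *Ms4a10* (chr19:10974701-10974950, minus strand), which hold no annotated exon and show the range from several CGs to none. The gaps between *Chchd4* and *Tmem43* (chr6:91473547-91473702, plus strand) and between *Ptprv* and *Ptpn7* (chr1:135132595-135132699, plus strand) are shown because in each a pair of genes starts in opposite directions, and the neighbours are compared below.
Smtnl1: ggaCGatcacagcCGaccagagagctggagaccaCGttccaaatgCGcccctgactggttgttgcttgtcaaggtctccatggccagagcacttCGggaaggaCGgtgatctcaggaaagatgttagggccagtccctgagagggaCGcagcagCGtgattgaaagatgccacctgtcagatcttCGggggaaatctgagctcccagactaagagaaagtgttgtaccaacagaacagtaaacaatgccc
Trim66: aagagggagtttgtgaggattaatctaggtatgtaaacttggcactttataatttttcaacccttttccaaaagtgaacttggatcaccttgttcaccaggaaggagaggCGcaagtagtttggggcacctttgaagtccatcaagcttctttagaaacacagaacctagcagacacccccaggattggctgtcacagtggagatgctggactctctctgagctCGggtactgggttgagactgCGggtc
Ms4a10: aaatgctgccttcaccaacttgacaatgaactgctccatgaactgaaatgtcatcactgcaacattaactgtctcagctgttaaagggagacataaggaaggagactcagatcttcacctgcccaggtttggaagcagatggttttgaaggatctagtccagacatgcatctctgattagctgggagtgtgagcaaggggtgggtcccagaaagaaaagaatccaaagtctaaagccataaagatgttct
Chchd4 to Tmem43: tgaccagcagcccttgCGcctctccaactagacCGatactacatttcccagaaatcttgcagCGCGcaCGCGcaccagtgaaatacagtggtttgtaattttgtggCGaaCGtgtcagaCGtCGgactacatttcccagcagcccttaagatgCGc
Ptprv to Ptpn7: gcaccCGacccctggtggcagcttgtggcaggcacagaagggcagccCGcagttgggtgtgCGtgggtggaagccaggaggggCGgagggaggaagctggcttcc

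Motifs were searched on both strands of the 8 windows. TATAAA was found in 1 window, that of *Trim66*, and in 12.4% of all windows. The GC box GGGCGG was found in 5 windows against 32.7% of all, and CCAAT in 2, those of *Tmem63a* and *Trim66*, against 33.8%. The E-box CACGTG and the p53 half-site were found in 0 windows, against 6.02% and 7.13%. These are matches of letters in a short window and describe no binding.

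Levels are given in CPM, the reads of a gene scaled to a library of fixed size, with TMM scaling, which trims extreme genes before libraries are compared. All 10 genes were among the 17532 with enough reads to be tested. Per kilobase of exon, the control level of *Tmem43* was 15.7 CPM per kb, at the 79.4th percentile of tested genes, that of *Ms4a10* was 8.33 (67.4th) and that of *Mlana* was 6.36 (62.4th). These 3 genes were above the median of 3.24 and were not weakly expressed. The other 7 were below it, in the order *Smtnl1* (1.59), *Pgbd5* (0.962), *Snx20* (0.859), *Tmem63a* (0.469), *Txlnb* (0.366), *Ptpn7* (0.207) and *Trim66* (0.155 CPM per kb). The median of the 10 genes was 0.910 CPM per kb in control, 3.13 in Zzz3 auxin and 2.55 in Yeats2 auxin, while that of all tested genes was 3.24, 3.32 and 3.22.

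The libraries held 14315120 to 27884704 reads assigned to genes, and 19 to 3529 reads per library fell in 1 of the 10 genes. Control 1 and Zzz3 auxin 3 stood apart in how expression followed GC content. The difference between GC-rich and GC-poor genes (upper against lower quartile of GC content) was -0.60 on the log2 scale in Control 1 and 0.45 in Zzz3 auxin 3, against -0.07 to 0.15 in the other 6 libraries. The 10 genes had a median exonic GC content of 53.4% against 49.4% of tested genes, and 8 of them were above that median. Results are therefore also given without these libraries and after removal of the trend. Markers of ESCs were present in all libraries, with 10 of 10 tested and a sum of 5540 to 5740 CPM in control, 4890 to 5580 in Zzz3 auxin and 5090 to 5710 in Yeats2 auxin.

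*Smtnl1* (ENSMUSG00000027077, chromosome 2, 84811176 to 84822652, minus strand, 8 exon blocks) encodes a smoothelin-like protein of smooth and skeletal muscle that acts on myosin phosphatase. It was at 3.01 and 2.59 CPM in the controls, at 14.9, 9.64 and 7.96 CPM in Zzz3 auxin and at 12.6, 9.70 and 11.7 CPM in Yeats2 auxin. Every auxin library was above both controls, and the auxin groups overlapped. The log2 fold change (FC) was 1.96 (95% interval 1.34 to 2.58) in Zzz3 auxin and 2.01 (1.40 to 2.63) in Yeats2 auxin, the highest of the 10 genes in Yeats2 auxin.

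*Txlnb* (ENSMUSG00000039891, chromosome 10, 17796226 to 17845665, plus strand, 10 exon blocks) encodes beta-taxilin of heart and skeletal muscle, from a family that binds syntaxins. Its level was 2.17 and 1.86 CPM in the controls, 12.5, 5.61 and 5.15 CPM in Zzz3 auxin and 3.09, 2.71 and 3.84 CPM in Yeats2 auxin. The 3 groups did not overlap, with Zzz3 auxin highest and Zzz3 auxin 1 far above its fellows. The log2 FC was 1.95 (1.1 to 2.80) in Zzz3 auxin, and 1.44 without Zzz3 auxin 1, and it was 0.67 (-0.18 to 1.52) in Yeats2 auxin. *Txlnb* overlaps *Gm20655* on the opposite strand, which had a log2 FC of 1.60 and 0.59 in turn (edgeR adjusted P 0.121 and 0.654), and no source used here says whether reads were counted by strand, so reads of the pair may not be fully separated.

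*Tmem43* (ENSMUSG00000030095, chromosome 6, 91473703 to 91488463, plus strand, 14 exon blocks) encodes a protein of the inner nuclear membrane that is mutated in a form of arrhythmogenic cardiomyopathy. It stood at 55.3 and 69.2 CPM in the controls, at 135, 114 and 134 CPM in Zzz3 auxin and at 105, 103 and 105 CPM in Yeats2 auxin. The 3 groups were again separate, and the Yeats2 auxin libraries lay close together. Of the 10 genes it had the lowest log2 FC in Zzz3 auxin, 1.04 (0.74 to 1.33), with 0.74 (0.45 to 1.03) in Yeats2 auxin.

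**Figure D1:**
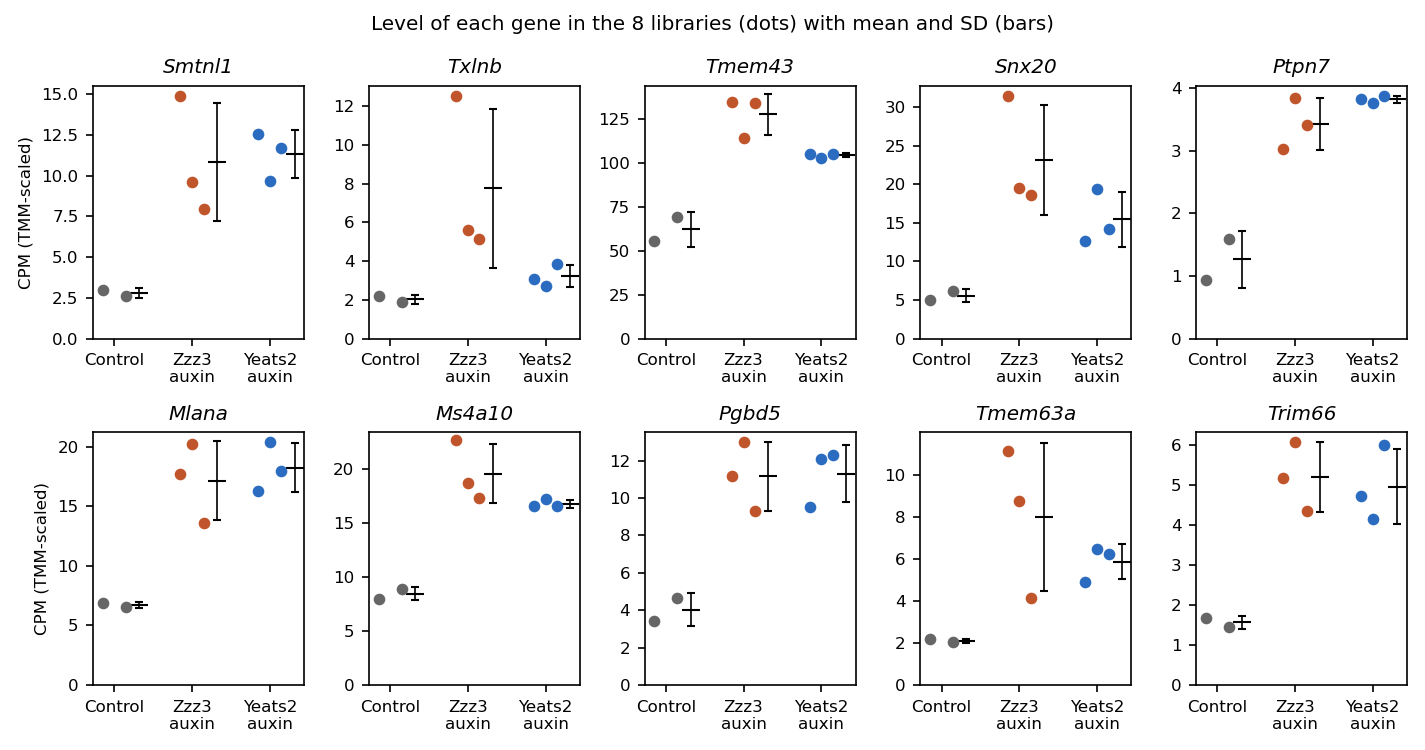
Level of each of the 10 genes in CPM (TMM-scaled, linear axis from 0) in the 8 libraries, with dots for libraries and bars for mean and SD of each group. All auxin libraries lie above both controls for every gene, and for *Txlnb*, *Tmem43* and *Ms4a10* the Yeats2 auxin dots lie between the other groups.

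*Snx20* (ENSMUSG00000031662, chromosome 8, 88626563 to 88636128, minus strand, 3 exon blocks) encodes a sorting nexin of leukocytes that binds the selectin ligand PSGL-1. The controls had 4.93 and 6.12 CPM, the Zzz3 auxin libraries 31.4, 19.5 and 18.6 CPM and the Yeats2 auxin libraries 12.7, 19.4 and 14.2 CPM. Zzz3 auxin 1 was again the highest library, and Yeats2 auxin 2 reached into the Zzz3 auxin range. The log2 FC of 2.07 (1.46 to 2.68) in Zzz3 auxin was the highest of the 10 genes there, and it was 1.48 (0.88 to 2.08) in Yeats2 auxin.

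*Ptpn7* (ENSMUSG00000031506, chromosome 1, 135132700 to 135145317, plus strand, 8 exon blocks) encodes a tyrosine phosphatase of blood cells that acts on the MAP kinases ERK and p38. With 0.937 and 1.59 CPM, or 19 and 35 reads, in the controls it had the lowest mean CPM of the 10 genes there, and the auxin libraries held 3.03, 3.85 and 3.41 CPM (Zzz3) and 3.83, 3.76 and 3.88 CPM (Yeats2). The controls differed most from each other here, and the auxin groups overlapped. The log2 FC was 1.43 (0.83 to 2.03) and 1.59 (0.99 to 2.18) in turn, and leaving out Control 1 or Control 2 moved the value in Zzz3 auxin to 1.11 or 1.87.

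*Mlana* (ENSMUSG00000024806, chromosome 19, 29697824 to 29708634, plus strand, 5 exon blocks) encodes a melanosome protein of pigment cells. It had 6.91 and 6.53 CPM in the controls, 17.7, 20.2 and 13.6 CPM in Zzz3 auxin and 16.3, 20.4 and 18.0 CPM in Yeats2 auxin. The auxin groups overlapped and were far above the controls. Log2 FCs of 1.36 (0.92 to 1.80) and 1.44 (1.00 to 1.88) resulted.

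*Ms4a10* (ENSMUSG00000024731, chromosome 19, 10962293 to 10974670, minus strand, 9 exon blocks) encodes a membrane protein of the MS4A family. Its 7.99 and 8.84 CPM in the controls stood against 22.6, 18.7 and 17.3 CPM in Zzz3 auxin and 16.5, 17.2 and 16.5 CPM in Yeats2 auxin. All Yeats2 auxin libraries were below all Zzz3 auxin libraries, by little. Against control, the log2 FC was 1.22 (0.85 to 1.58) and 0.99 (0.62 to 1.36).

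*Pgbd5* (ENSMUSG00000050751, chromosome 8, 124369049 to 124439658, minus strand, 10 exon blocks) derives from a piggyBac transposase and is expressed in brain. Its level was 3.40 and 4.67 CPM in the controls, 11.2, 13.0 and 9.30 CPM in Zzz3 auxin and 9.55, 12.1 and 12.3 CPM in Yeats2 auxin. The groups with auxin overlapped, and their means of 11.2 ± 1.87 and 11.3 ± 1.55 CPM (SD, n = 3 each) were nearly equal. Log2 FCs were 1.47 (0.97 to 1.97) and 1.49 (0.99 to 1.99).

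*Tmem63a* (ENSMUSG00000026519, chromosome 1, 180942344 to 180975112, plus strand, 26 exon blocks) encodes a mechanically gated ion channel that is needed for myelination. It was at 2.17 and 2.04 CPM in the controls, at 11.1, 8.72 and 4.15 CPM in Zzz3 auxin and at 4.91, 6.48 and 6.21 CPM in Yeats2 auxin. The Zzz3 auxin libraries were the most spread, with Zzz3 auxin 3 below all Yeats2 auxin libraries. The log2 FC was 1.94 (1.14 to 2.74) and 1.48 (0.68 to 2.27).

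*Trim66* (ENSMUSG00000031026, chromosome 7, 109449006 to 109508134, minus strand, 22 exon blocks) encodes a testis-enriched member of the TIF1 family of chromatin readers, which binds heterochromatin protein 1 (HP1). The controls held 1.68 and 1.45 CPM, Zzz3 auxin 5.18, 6.08 and 4.35 CPM and Yeats2 auxin 4.72, 4.16 and 6.01 CPM. The auxin groups overlapped. Against control, log2 FCs were 1.74 (1.16 to 2.32) and 1.66 (1.09 to 2.24).

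Over the 10 genes, the median log2 FC was 1.61 (1.04 to 2.07) in Zzz3 auxin and 1.48 (0.67 to 2.01) in Yeats2 auxin, where all tested genes had medians of 0.01 and -0.01. Both comparisons share the 2 controls. Because these fold changes chose the genes, they may be too large, and their intervals make no allowance for the choice. Calls were made with edgeR's quasi-likelihood test at a Benjamini-Hochberg adjusted P under 0.05 over the 17532 genes. In Zzz3 auxin, 0.753% of tested genes were called in either direction, 0.496% as higher, and the 10 genes were all called. In Yeats2 auxin, 0.445% of tested genes were called, 0.331% as higher, and 8 of the 10 were called, *Txlnb* and *Tmem63a* being the exceptions. Since the genes were picked for these rises, nothing is read from the counts. All libraries of the auxin group were above both controls for 10 of 10 genes in both comparisons, as for 16.8% and 19.3% of tested genes, and the same restriction holds. The log2 FC was over 1 for 10 and 7 of the genes and for 4.57% and 3.27% of tested genes.

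The number of calls depended on single libraries, for the 10 genes and for all tested genes alike. In Zzz3 auxin, 0 of the 10 genes were called without Control 1 or Control 2, or when only the compared groups were fitted, where 0 of all genes were called too. Without Yeats2 auxin 1, 0 of the 10 and 3 of all genes were called in Zzz3 auxin. The counts were 4 of 14 calls without Zzz3 auxin 1, 6 of 28 without Yeats2 auxin 2 and 2 of 12 without Yeats2 auxin 3. In Yeats2 auxin, 0 of the 10 were called without Control 1, without Control 2 or without any of the 3 Yeats2 auxin libraries, where 0 to 4 of all genes were called.

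Without both libraries that stood apart on GC content, 3 of the 10 genes were called in Zzz3 auxin and 0 in Yeats2 auxin, beside 18 and 8 of all 18268 genes tested (0.0985% and 0.0438%). Their log2 FCs were then 0.86 to 2.29 and 0.61 to 2.14. After removal of the GC and length trend, 9 and 8 of the 10 were called, beside 192 and 138 of all genes (1.1% and 0.787%), with log2 FCs of 0.95 to 2.08 and 0.67 to 1.86. As these genes were picked for a rise against control in these same libraries, the sign of these values is no sign of stability. The labels do not say whether the libraries came from separate cultures, so the P values measure the spread between these samples only.

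**Figure D2:**
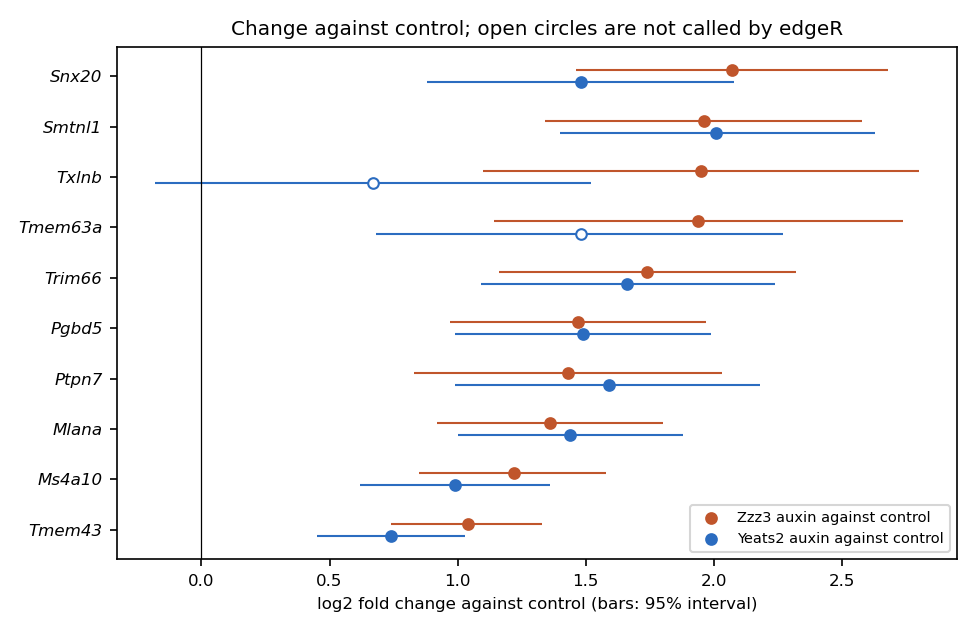
Log2 fold change of each gene against control in Zzz3 auxin and Yeats2 auxin, with 95% intervals from the edgeR fit of all 8 libraries, filled circles being called. The interval of *Txlnb* in Yeats2 auxin includes 0, while all other intervals lie above it. The genes were picked for these fold changes, and the intervals make no allowance for that choice.

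The depletions were compared directly, as Yeats2 auxin minus Zzz3 auxin, with the same auxin libraries that had served to pick the genes. *Txlnb* had the largest difference, a log2 FC of -1.28 (-1.97 to -0.59, edgeR adjusted P 0.779), which was -0.75 without Zzz3 auxin 1. *Snx20* followed with -0.59 (-1.08 to -0.09), which was -0.30 without that library, and *Tmem63a* with -0.46 (-1.10 to 0.17). For *Tmem43* the difference was -0.29 (-0.54 to -0.04) and *Ms4a10* by -0.23 (-0.54 to 0.09).

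For the other 5 genes the estimates were near 0. The differences were -0.08 (-0.53 to 0.37) for *Trim66*, 0.01 (-0.40 to 0.42) for *Pgbd5*, 0.05 (-0.43 to 0.54) for *Smtnl1*, 0.08 (-0.28 to 0.44) for *Mlana* and 0.16 (-0.31 to 0.62) for *Ptpn7*. Their intervals reach from -0.53 to 0.62, and a gene that was not called is not thereby shown to be equal in both. By edgeR, 0 of 17532 genes (0.0%) and 0 of the 10 were called in this comparison, and DESeq2 called 3 and 0. At an unadjusted P under 0.05 there were 3 of the 10 genes, *Txlnb*, *Tmem43* and *Snx20*, against 6.25% of tested genes. Without the filter on low counts edgeR called *Txlnb*, beside 117 of 33007 genes in all (0.354%). All Yeats2 auxin libraries were below all Zzz3 auxin libraries for 3 of the 10 genes, *Txlnb*, *Tmem43* and *Ms4a10*, and for 5.82% of tested genes, and all were above for 0 of the 10 and for 5.25%. Because high values in these auxin libraries served to pick the genes, nothing is read from these counts either.

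The 10 genes did not all have the same order of libraries. Relative to the control mean, on the scale log2(CPM + 0.5), their median was 1.42, 1.55 and 1.15 in the Zzz3 auxin libraries and 1.15, 1.36 and 1.35 in the Yeats2 auxin libraries. Zzz3 auxin 1 was the highest of its group for 6 genes and Zzz3 auxin 2 for 4. Zzz3 auxin 3, the shallowest library and 1 of those apart on GC content, was the lowest of its group for 8 of the 10 genes. The matching shares over all tested genes were not computed, so these counts are not read as a trait of the 10 genes. The part of depth and GC trend in them was not tested.

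Protein-coding genes that averaged 1 CPM or more were ranked by how close their profile over the 8 libraries was to the median profile of the 10 genes, as the root mean square (RMS) distance on that scale. Of 11970 such genes, the nearest was *Plk2*, a polo-like kinase induced by p53, with an RMS distance of 0.0933. Its level was 84.1 ± 0.579 CPM in control, 204 ± 25.7 in Zzz3 auxin and 194 ± 12.6 in Yeats2 auxin. The next were *Galnt6* (0.148), an enzyme of O-glycosylation, *Crhr2* (0.167), a corticotropin-releasing hormone receptor, *Plcd4* (0.193), a phospholipase C, and *Tas1r1* (0.201), a taste receptor subunit. *Galnt6* was at 37.2, 101 and 100 CPM in the 3 groups, and the other 3 were at 1.23 to 3.83 CPM in control. Among the 10 genes themselves, *Mlana* was nearest to their median profile (0.101) and *Txlnb* farthest (0.582). As the 10 genes were picked for a rise in these libraries, any gene with a like rise is near by construction. Whether the near genes share a cause with them was not tested.

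**Figure D3:**
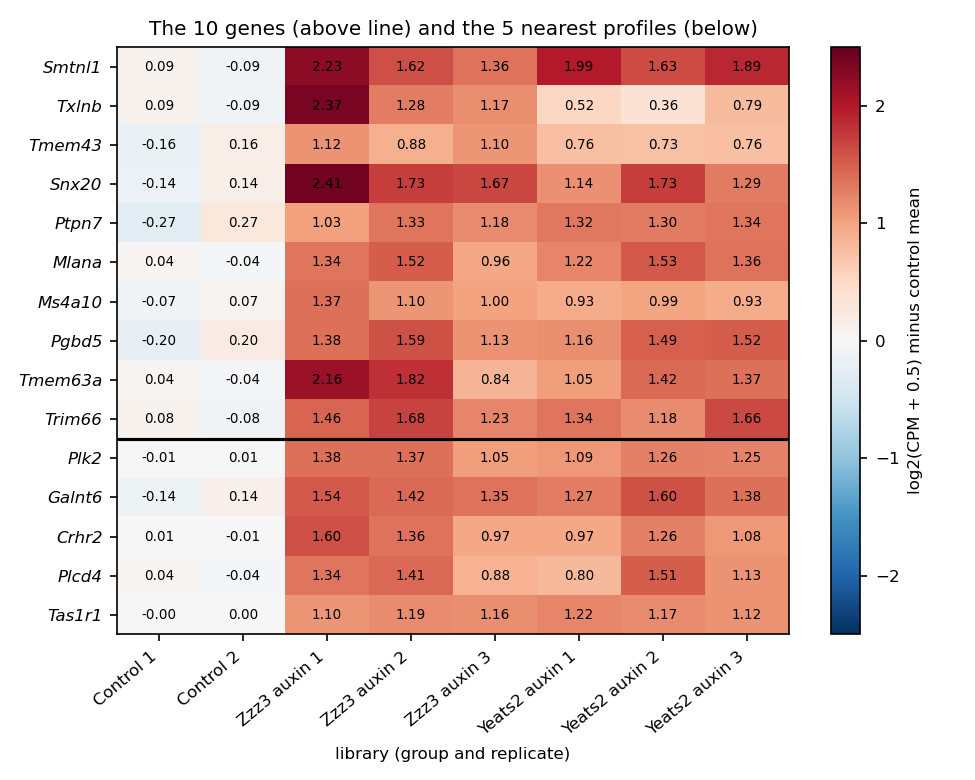
Heat map of log2(CPM + 0.5) minus the control mean for the 10 genes (above the line) and the 5 genes with the nearest profiles (below), in each of the 8 libraries, with the value printed in each cell. *Smtnl1*, *Txlnb*, *Snx20* and *Tmem63a* are darkest in Zzz3 auxin 1, and *Txlnb* is pale in Yeats2 auxin.

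Neighbouring genes were examined to see whether the rise extended beyond the 10 genes. Of the 20 protein-coding genes next to them, 18 were tested, with a median log2 FC of 0.13 (-0.45 to 1.49) in Zzz3 auxin and 0.18 (-1.21 to 1.65) in Yeats2 auxin. In Zzz3 auxin 1 of the 18 was called, beside 0.753% of all tested genes. This was *Ephx1*, an epoxide hydrolase that ends 1.1 kb from the end of *Tmem63a* on the opposite strand. It rose in Zzz3 auxin from 18.7 ± 2.33 to 33.7 ± 4.88 CPM (SD, n = 2 and 3). The edgeR log2 FC was 0.85 with an SE of 0.16 and an adjusted P of 0.0402, and it was 0.78 in Yeats2 auxin (adjusted P 0.0656). The call of *Ephx1* was present without Zzz3 auxin 2 or without Zzz3 auxin 3, and absent without any of the other 6 libraries. In Yeats2 auxin edgeR called 0 of the 18, with 4 at an unadjusted P under 0.05, as for 14.6% of tested genes. DESeq2 called 3 neighbours in each comparison, *Ube2l6*, *Ephx1* and *Nod2*, and among all genes it called 1080 and 398 in turn (7.78% and 2.75% of those to which it gave an adjusted P).

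*Ube2l6*, an enzyme that conjugates the interferon-induced modifier ISG15, ends 0.840 kb from the end of *Smtnl1*. Its level was 1.19 ± 0.137 CPM in control, 3.28 ± 1.48 in Zzz3 auxin and 3.73 ± 0.880 in Yeats2 auxin, with log2 FCs of 1.49 and 1.65 (adjusted P 0.0813 and 0.101). *Nod2*, a bacterial sensor of immune cells, lies 11.2 kb from *Snx20* and had log2 FCs of 1.18 and 0.97 (adjusted P 0.0656 and 0.146). *Lefty1*, a Nodal antagonist 3.94 kb from *Tmem63a*, had 0.77 and -1.21 (adjusted P 0.482 and 0.395), with a wide spread of 4.02 ± 3.26 CPM in Zzz3 auxin.

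The 2 gaps printed above gave unlike results. *Chchd4*, a mitochondrial import factor that starts 0.156 kb from *Tmem43* in the opposite direction, was at 116 ± 4.62 CPM in control, 102 ± 8.92 in Zzz3 auxin and 104 ± 3.15 in Yeats2 auxin. The log2 FCs were -0.19 and -0.16 (SE 0.11 each, adjusted P 0.357 and 0.548), beside 1.04 and 0.74 for *Tmem43*. *Ptprv*, a receptor tyrosine phosphatase gene known to be induced by p53, is annotated as a processed transcript and so was outside the rule for neighbours; it was picked after its values were seen.

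*Ptprv* (chromosome 1, 135108497 to 135132594, minus strand) starts 105 bases from *Ptpn7* and does not overlap it. It was at 16.3 and 23.2 CPM in the controls, at 57.8, 49.7 and 41.4 CPM in Zzz3 auxin and at 43.6, 56.0 and 48.7 CPM in Yeats2 auxin. Every auxin library was above both controls. By edgeR it rose by a log2 FC of 1.33 with an adjusted P of 0.0187, and of 1.32 with an adjusted P of 0.0241 (SE 0.20 each), beside 1.43 and 1.59 for *Ptpn7*, which had a far lower level. Over 16 alternatives the log2 FC of *Ptprv* was 1.04 to 1.61 and 1.09 to 1.60. It was called in both comparisons without Zzz3 auxin 2 or Zzz3 auxin 3. The call in Zzz3 auxin was lost without Control 1, Control 2, Zzz3 auxin 1, Yeats2 auxin 1 or Yeats2 auxin 3, and that in Yeats2 auxin without Control 1, Control 2 or any Yeats2 auxin library.

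**Figure D4:**
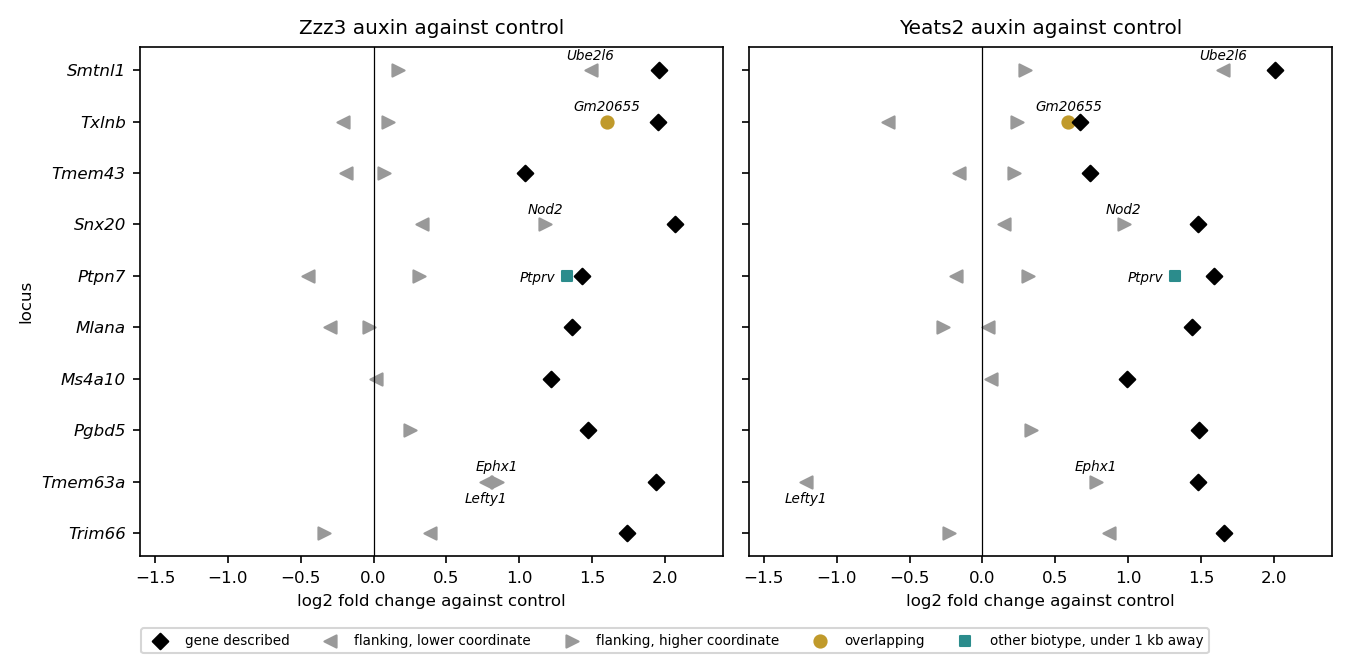
Log2 fold change against control of each of the 10 genes (diamonds), of the flanking protein-coding genes (triangles), of an overlapping gene (circle) and of *Ptprv* (square), by locus, in Zzz3 auxin (left) and Yeats2 auxin (right). Most triangles lie near 0, and *Ube2l6*, *Nod2*, *Ephx1* and *Ptprv* lie on the side of the gene beside them in both panels.

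Lists of genes that mark the adult tissues were set beside the 10 genes, without their own members. In bulk RNA, more cells of a type and more RNA per cell cannot be told apart. Of the muscle markers, such as sarcomere genes, 13 of 20 were tested, 0 were called in either comparison, and the medians were 0.18 and 0.27. Their most abundant gene, *Ttn*, which encodes titin, had 1130 ± 10.9 CPM in control, 1280 ± 56.8 in Zzz3 auxin and 1260 ± 181 in Yeats2 auxin. Of the leukocyte markers, 13 of 20 were tested and 0 were called, with medians of 0.33 and 0.40, 12 and 10 of them being positive. Their sum was 80.8 to 83.6 CPM in control, 86.6 to 110 in Zzz3 auxin and 73.1 to 105 in Yeats2 auxin, most of it *Laptm5*, a lysosomal protein, with log2 FCs of 0.22 and 0.11.

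Of the melanocyte markers, 7 of 12 were tested and 0 called, with medians of 0.11 and 0.12 and 1 marker at 0 in every library. The receptor gene *Kit* led the list with 318 ± 21.8, 308 ± 53.3 and 335 ± 32.6 CPM. Of the oligodendrocyte markers, 4 of 11 were tested and 0 called (medians 0.01 and -0.08), *Cnp* of myelin being the highest with log2 FCs of 0.19 and 0.35. Of the male germ line markers, 5 of 9 were tested and 0 called (medians 0.40 and 0.33), 4 were at 0 in every library, and the highest, the germ cell RNA-binding gene *Dazl*, had 0.40 and 0.15.

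By edgeR, 1 enterocyte and 1 neuronal marker were called in Yeats2 auxin, both as higher, beside 0.331% of all tested genes called as higher. *Slc5a1*, the intestinal sodium-glucose transporter, went from 8.74 ± 1.05 CPM in control to 15.3 ± 4.35 in Zzz3 auxin and 22.0 ± 1.70 in Yeats2 auxin, with log2 FCs of 0.82 and 1.33 (edgeR adjusted P 0.0887 and 0.0382). It was 1 of 5 tested of 12 enterocyte markers, which had medians of 0.82 and 1.31 and 3 markers at 0 in every library. Of the other tested markers, *Vil1* had log2 FCs of 1.03 and 1.5 (edgeR adjusted P 0.0942 and 0.0513). *Lct* had 1.34 and 1.31, *Anpep* had -0.22 and 0.07, and *Cdx2* had -0.13 and 0.02. *Nefl*, the neurofilament light chain, went from 38.5 ± 1.46 CPM to 59.0 ± 8.60 and 77.3 ± 4.51, with log2 FCs of 0.62 and 1.00 (adjusted P 0.0656 and 0.0204). Of 12 neuronal markers 8 were tested, with medians of 0.26 and 0.23, and the highest, the tubulin-binding *Stmn2*, had -0.41 and -0.18. Neither *Slc5a1* nor *Nefl* was called in Yeats2 auxin without Control 1, Control 2 or any Yeats2 auxin library. Whether cells of these types took part in the rise of the 10 genes was not tested.

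Of the paralogs of the 10 genes, 11 of 29 were tested and 0 called, with medians of 0.20 and 0.13, and 9 were at 0 in every library. The highest, the TIF1 family corepressor *Trim28*, had log2 FCs of 0.55 and 0.48 (adjusted P 0.109 and 0.223). Of the genes for known partners, 17 of 19 were tested and 0 called, with medians of -0.05 in both comparisons. Their log2 FCs ran from -0.57 to 0.97 and from -0.30 to 0.61, with 7 and 8 of them positive and 10 and 9 negative. The most abundant, *Cbx5*, which encodes HP1 alpha, had -0.34 and -0.23. Of the ESC markers, 0 of 10 were called, with medians of -0.14 and 0.05, and the most abundant, the pluripotency factor *Tfcp2l1*, had -0.28 and -0.14.

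At an unadjusted P under 0.05 in Zzz3 auxin there were 10 of the 17 partners, 3 paralogs, 3 enterocyte markers, 2 each of the muscle, leukocyte, neuronal and ESC markers, 1 each of the melanocyte and germ line markers and 0 oligodendrocyte markers, against 21.7% of all tested genes. In Yeats2 auxin there were 3 enterocyte markers, 2 each of the paralogs, leukocyte and ESC markers, 1 each of the partners and of the muscle, neuronal, oligodendrocyte and germ line markers and 0 melanocyte markers, against 14.6%. Apart from the ESC list, DESeq2 called 8 genes in Zzz3 auxin and 3 in Yeats2 auxin. The 8 were *Slc5a1*, *Nefl*, *Trim28*, *Tmem63b*, *Was*, *Pmel*, *Lmna* and *Ppp1cb*, of which only *Ppp1cb* was lower. The 3 in Yeats2 auxin were *Slc5a1*, *Nefl* and the enterocyte marker *Vil1*, all higher. Among all genes to which it gave an adjusted P, DESeq2 called 7.78% and 2.75%. Of the ESC markers it called *Pou5f1* in Zzz3 auxin, with a log2 FC of 0.62, which edgeR did not call.

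**Figure D5:**
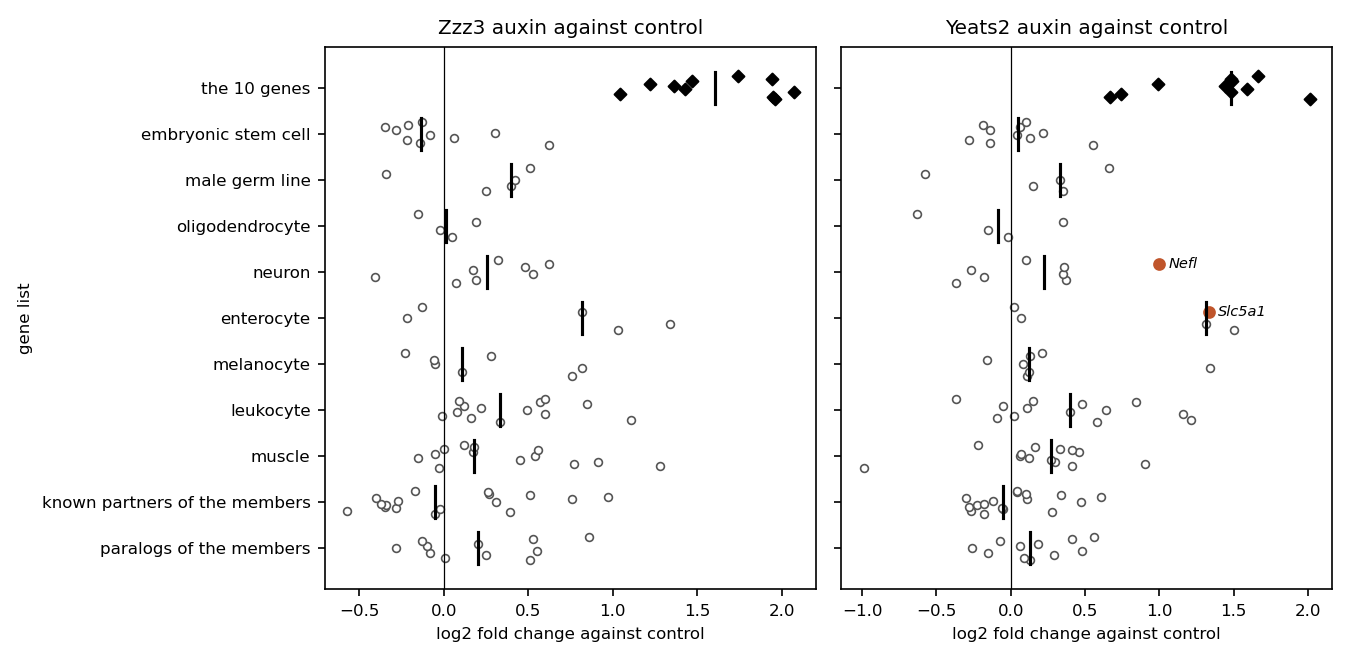
Log2 fold change against control of the tested genes of each list (circles, filled and named where called) and of the 10 genes (diamonds), with bars for medians, in Zzz3 auxin (left) and Yeats2 auxin (right). The list medians lie between -0.14 and 0.82 on the left and between -0.08 and 1.31 on the right, and those of the 10 genes, picked for their rise, at 1.61 and 1.48.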

How the data were processed

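Total RNA of 8 mouse ESC libraries was analysed, in 3 groups taken from the titles. The deposited values are raw read counts per gene, which the authors made from trimmed reads without ribosomal RNA by alignment to mm10 with STAR 2.5.3a and counting of unique, unambiguous reads with HTSeq 0.6.1p1 on Ensembl annotation. The labels name poly(A) RNA while the protocol describes ribodepletion, and the strand option is not given in the sources used here. The 5 tallies of unassigned reads were left out. GENCODE annotation of GRCm38 named 55141 of the 55401 genes, and 260 had no match.

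Counts were fitted in R 4.3.3 with edgeR 4.0.16 (filterByExpr, TMM, robust quasi-likelihood test, all 8 libraries, a mean per group), two-sided, with Benjamini-Hochberg adjustment over 17532 genes in each of 3 comparisons. Intervals are at 95%. The pipeline was tested on simulated data with 200 changed genes, in 3 draws for each comparison with control. It recovered 81.2% of them in Zzz3 auxin and 83.0% in Yeats2 auxin, but only 56.2% and 62.7% of the weakly expressed ones. Of its calls there, 6.34% and 6.39% were false. Alternatives were DESeq2 1.42.0, median-of-ratios factors, no filter on low counts, a minimum of 1 CPM on average, only the compared groups, the replicate number as a block, a correction for GC content and length (lowess span 0.3) and each library left out. Leaving out Control 1 and Zzz3 auxin 3 together was chosen after seeing the data. Promoter windows of 250 bases came from RefSeq (GRCm38.p6). Tables and plots were made in Python 3.11.15.

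The 10 genes and the gene lists were chosen with earlier results of these data known, so no P is given for the 10 genes against control. The text names all 10, called genes, the most abundant gene of each list and the tested enterocyte markers. It also names neighbours that were called or had a log2 FC beyond 1 in either direction, and the 5 nearest profiles. The study's nascent RNA data were not analysed here. Depth of 14315120 to 27884704 reads leaves counting error that matters mainly for genes with few reads, and 2 control libraries limit the precision.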

Additional observations from a re-analysis of the deposited data

How the results depend on the processing

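Of 160 log2 FCs of the 10 genes in Zzz3 auxin over 16 alternatives, 90 kept their call and 70 lost it; in Yeats2 auxin 101 of 160 were on the same side of the threshold, 55 lost the call and 4 gained it. In the direct comparison 13 of 160 changed sign, and with 1 library left out the values ran from -0.12 to 0.35 for *Smtnl1*, -0.05 to 0.21 for *Mlana*, -0.09 to 0.14 for *Pgbd5* and -0.24 to 0.05 for *Trim66*. *Smtnl1* had -0.04 without Zzz3 auxin 2, -0.12 without Zzz3 auxin 3, -0.03 without Yeats2 auxin 1 and -0.11 without both libraries apart on GC content. *Mlana* had -0.05 without Zzz3 auxin 3, -0.01 without Yeats2 auxin 2 and -0.05 without both. *Pgbd5* had -0.09, -0.04, -0.05 and -0.09 without Zzz3 auxin 3, Yeats2 auxin 2, Yeats2 auxin 3 and both. *Trim66* had 0.05 without Zzz3 auxin 2 and 0.04 without Yeats2 auxin 2.

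Calls among all genes were 132 in Zzz3 auxin, 78 in Yeats2 auxin and 0 between the depletions. DESeq2 gave 1080, 398 and 3, no filter 1542, 553 and 117, only the compared groups 0, 454 and 0, the GC and length correction 192, 138 and 0, and leaving out both libraries apart on GC content 18, 8 and 1. With 1 library left out the counts were 0 to 841, 0 to 217 and 0 to 1. Of the 10 genes, 0 to 10 were called in Zzz3 auxin and 0 to 9 in Yeats2 auxin with 1 library left out, 0 in Zzz3 auxin with only the compared groups, 3 and 0 without both libraries apart on GC content, and 1 between the depletions with no filter. Of the list genes without the ESC markers, called 0 and 2 times, Zzz3 auxin gave 8 by DESeq2, 10 with no filter and 2 after the GC and length correction, Yeats2 auxin gave 5 with no filter, 4 with only the compared groups and 0 without both libraries, and the ranges with 1 library left out were 0 to 3 in both. Of the neighbours, called 1 and 0 times, DESeq2 and no filter gave 3 in both, only the compared groups 0 and 3, and leaving out both libraries 0 in Zzz3 auxin, with ranges of 0 to 3 and 0 to 2. The cause of these changes was not tested.

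Deviations from the group mean correlated at -0.3326 to 0.3027 between libraries with the same replicate number in the titles. Between differently numbered libraries of different groups they correlated at -0.3661 to 0.3661. With 2 controls, their deviations mirror each other, so these values cannot decide whether the numbers pair the libraries. In the fit that blocked on replicate number, 7 and 3 of the 10 genes were called, 42 and 32 of all genes and 0 neighbours in Zzz3 auxin.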
